A study of Mus musculus with 18 samples.

Results

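The 9 genes described here are 3 cytokines of the interleukin-6 family (Il6, Lif and Cntf), 4 receptor subunits (Il6ra, Il6st, Osmr and Lifr), the transcription factor Stat3 and its feedback inhibitor Socs3. They were chosen by name, as the family's ligands, receptors and main signal path, with earlier results of these data known. Of the 9, 8 are among the 15730 genes of the deposited count table, and Cntf appears in the deposited FPKM table of 45904 features only. RNA was sequenced from whole sciatic dorsal root ganglia, which hold the cell bodies of sensory neurons with their glia, taken from C57BL/6 mice aged 6 to 8 weeks. All ganglia were collected 24 hours after surgery, and there were 18 samples, 3 in each of 6 groups, each a pool from 2 mice. SNA_Saline had a sciatic nerve injury and saline, and SNA_NAC had the same injury and 30 mM N-acetyl-cysteine, a thiol antioxidant. Sham_Saline had the sham operation and saline, and Sham_H2O2 had the sham operation and 13 mM hydrogen peroxide (spelled Sham_H202 in the labels). DCA had a dorsal column lesion, which reaches the branches these neurons send up the spinal cord, and LAM had a laminectomy alone, the removal of bone over the cord. No group had the sham operation with N-acetyl-cysteine.

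Cytokines of this family share the signalling subunit gp130, the product of Il6st. Interleukin-6 first binds its own receptor, encoded by Il6ra, and leukemia inhibitory factor binds the product of Lifr, with gp130 as the partner in both complexes; oncostatin M uses the product of Osmr. Janus kinases bound to gp130 then phosphorylate STAT3, which enters the nucleus and activates target genes, among them Socs3, whose product binds gp130 and shuts the signal down. In sensory neurons the pathway is known for its activity after damage to the peripheral axon and for its part in axon regrowth.

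A pair of regulatory sequences comes first because Il6, the ligand, and Socs3, the feedback target, carry most of the results. They come from the RefSeq promoter table of build GRCm38.p6, in which all 9 genes have an entry, hold no GENCODE exon of their gene, and are read 5′ to 3′ on the gene's own strand. The Il6 stretch is chr5:30012864-30013113 on the plus strand, and the Socs3 stretch is chr11:117969452-117969616 on the minus strand. The Il6 stretch lies before the start of the annotated gene, whereas the Socs3 stretch lies in an intron of a GENCODE transcript that starts further upstream, at position 117970047. Capitals mark matches to a searched motif.
Il6: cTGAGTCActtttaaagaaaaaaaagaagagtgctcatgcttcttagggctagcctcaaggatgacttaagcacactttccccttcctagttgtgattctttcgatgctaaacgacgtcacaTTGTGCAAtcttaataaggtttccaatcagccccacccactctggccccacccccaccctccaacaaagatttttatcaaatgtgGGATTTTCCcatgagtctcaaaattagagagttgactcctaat
Socs3: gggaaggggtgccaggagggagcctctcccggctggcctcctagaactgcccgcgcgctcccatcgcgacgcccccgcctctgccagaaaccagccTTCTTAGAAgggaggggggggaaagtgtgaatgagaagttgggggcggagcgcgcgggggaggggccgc
In Il6 the capitals are, in order, an AP-1 match (TGANTCA), a C/EBP form (TTNNGCAA) and an NF-kB form (GGANTTTCC). Their first bases lie at -249, -128 and -43, counted from the RefSeq start base as 0. In Socs3 they are a STAT element (TTCNNNGAA) at -154. Both strands of each gene's window, 250 bases before to 50 bases after the start, were searched for these 4 motifs and for TGACGTCA, the cyclic AMP response element, and no marked matches overlap. Among 32851 windows of 300 bases, the AP-1 letters occur in 7.81%, the C/EBP form in 10.8%, the NF-kB form in 1.25%, the STAT element in 8.3% and TGACGTCA in 1.79%. Lif, Osmr and Cntf each hold 1 AP-1 match, and the windows of Il6ra, Il6st, Stat3 and Lifr hold no match to these letters. A match describes the letters only and is not evidence of binding.

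Deposited counts per library summed to between 6472476 and 42435331. All 11 neuron markers examined were in the count table, with summed levels of 12880 to 19850 CPM (read counts put on a common library size with the trimmed mean of M values) over the 18 libraries. No marker of neurons, satellite glia, Schwann cells, macrophages, neutrophils, endothelium, fibroblasts, muscle or blood was called in any of the 7 comparisons made. Uncalled levels still differed: the 5 muscle markers had a median log2 fold change of -1.88 in SNA_Saline and -3.00 in SNA_NAC against Sham_Saline, and the 5 red blood cell markers had -0.33 and -1.29. Muscle markers summed to 5.43 to 1085 CPM in Sham_Saline, 21.8 to 217 in SNA_Saline and 26.3 to 82.6 in SNA_NAC, so the groups overlapped. Their part in the results was not tested. Libraries differed in how log2 CPM depended on GC share over genes; this slope was steepest in Sham_Saline replicate 2, at 0.43 log2 units per standard deviation of GC share, against -0.22 to 0.25 in the other 17. Replicate numbers equal sequencing lanes in the labels. In whole ganglia, fewer cells that express a gene and less of its RNA per cell cannot be told apart.

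Compared per length, as FPKM (fragments per kilobase of transcript at a common library size), the 9 genes lay in tiers whose order was nearly the same in each group. Over all 18 samples the receptor subunits Lifr and Il6st and the transcription factor Stat3 had mean levels of 43.5 ± 5.91, 39.6 ± 10.3 and 29.8 ± 4.82 FPKM (SD, n = 18). Lifr and Il6st did not differ beyond their spread, and they changed places in 2 of the 6 groups, while Stat3 came next in each group. A middle tier held Osmr, at 4.44 ± 0.661 FPKM, and Socs3, at 3.31 ± 1.43 FPKM, whose ranges overlapped. The interleukin-6 receptor subunit Il6ra, at 0.670 ± 0.253 FPKM, and the cytokines Cntf, at 0.389 ± 0.175, and Lif, at 0.203 ± 0.0768, were at the bottom. The level of Il6 depended on the group, from 0.251 ± 0.197 FPKM in DCA to 3.76 ± 0.433 FPKM in SNA_NAC (SD, n = 3), so that it ranked sixth in 3 groups and eighth in LAM and DCA. Among the genes of the count table, mean FPKM put Lifr at percentile 90.8, Stat3 at 86.5, Il6ra at 13.4 and Lif at 2.45.

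**Figure D1:**
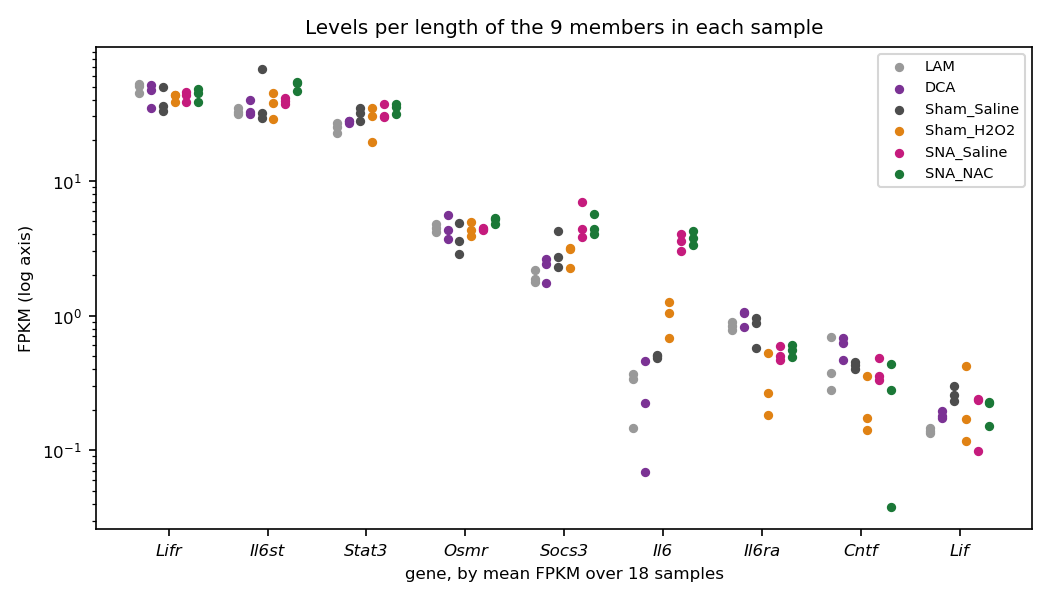
Level per length of each of the 9 genes in FPKM (vertical log axis) in each sample, coloured by group, with genes ordered by their mean over 18 samples. Lifr, Il6st and Stat3 sit at 19.5 FPKM or above in all samples, and Il6 spans the range from 0.0688 to 4.20 FPKM with both sciatic injury groups at its top.

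The comparison of SNA_Saline with Sham_Saline addressed the response to injury of the peripheral branch. Il6 (ENSMUSG00000025746, chr5:30013114-30019981, GRCm38, plus strand), the cytokine that names the family, rose, and it was the 1 member of 8 called. The call rule was a Benjamini-Hochberg adjusted p under 0.05 in edgeR's quasi-likelihood test over all genes, which 2.73% of the 15730 genes met. The median log2 fold change over the 8 members was 0.11, against -0.03 over all genes.

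Il6 stood at 0.524, 0.548 and 0.543 CPM in the Sham_Saline replicates, on 8 to 13 counts per library. In SNA_Saline it stood at 4.03, 4.54 and 3.28 CPM, on 42 to 61 counts, and in SNA_NAC at 3.70, 4.76 and 4.15 CPM, on 76 to 156 counts. Every injured library of the sciatic nerve was far above every sham library, and the sets with and without the antioxidant overlapped. The log2 fold change of SNA_Saline against Sham_Saline was 2.85 (SE 0.34, 95% interval 2.13 to 3.58, edgeR adjusted p = 0.000122), a 7.22-fold rise. That of SNA_NAC against Sham_Saline was 2.94 (SE 0.33, 95% interval 2.23 to 3.65, edgeR adjusted p = 6e-05). In SNA_NAC, too, Il6 was the 1 member of 8 called, against 3.32% of all genes, and both comparisons share the Sham_Saline libraries. Within the 3 lanes, SNA_Saline exceeded Sham_Saline by 2.71, 2.83 and 2.38 on the log2 CPM scale with a prior count of 2, and SNA_NAC did by 2.59, 2.89 and 2.71. The 7 macrophage markers in the table (Adgre1 was not in it) summed to 53.3 to 57.5 CPM in SNA_Saline, 45.8 to 57.5 in SNA_NAC and 51.2 to 56.4 in Sham_Saline. Their median log2 fold change against Sham_Saline was 0.17 in SNA_Saline and 0.04 in SNA_NAC. In the difference of the sciatic and dorsal column changes it was 0.66. The part of macrophages in the Il6 result was not tested.

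**Figure D2:**
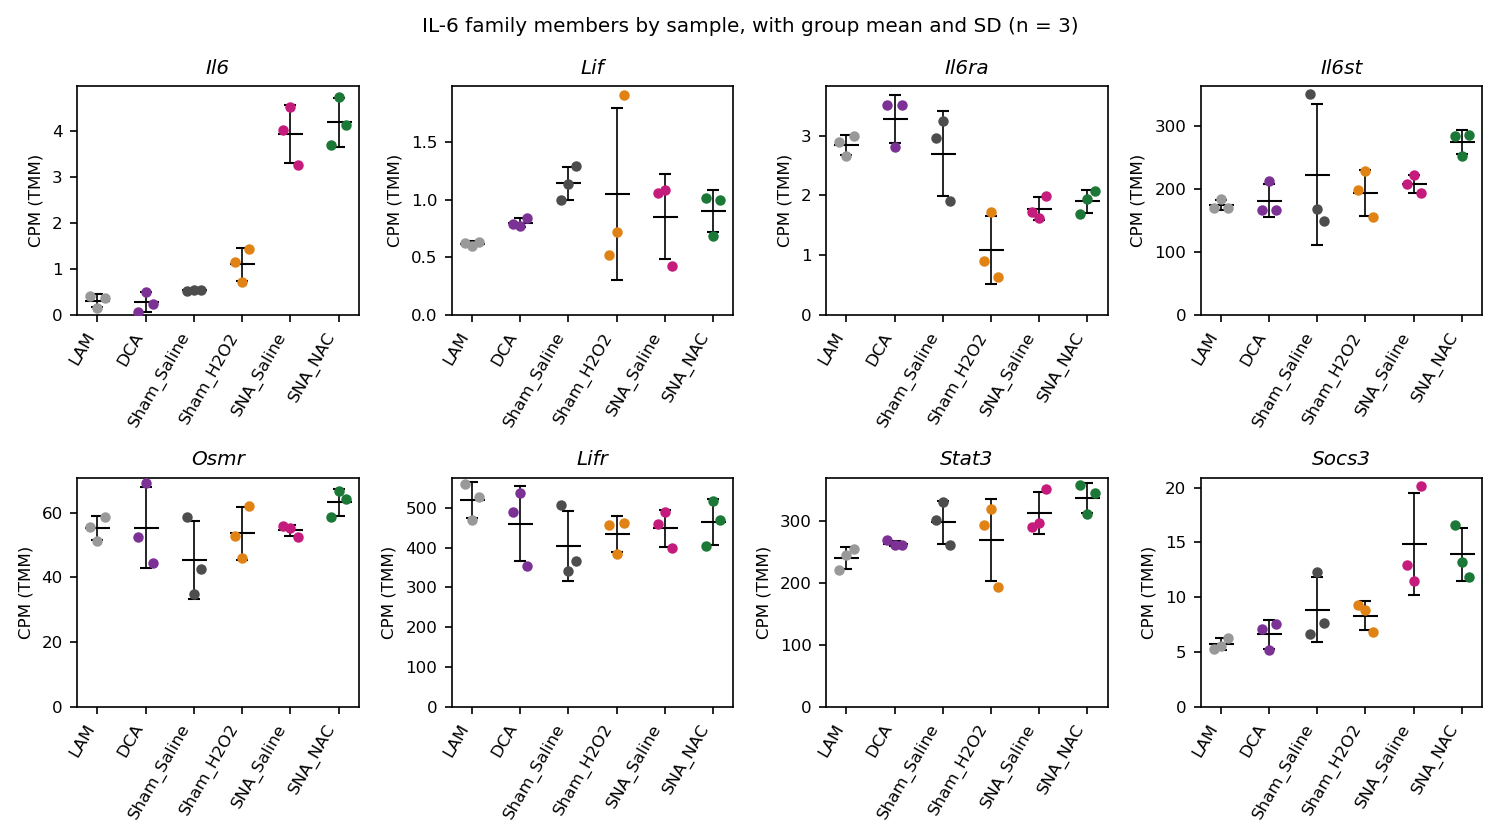
CPM of 8 members in each sample (points, replicates 1 to 3 from left to right) with the mean and SD of each group of 3 (bars), 1 panel per gene with its own axis from 0. Il6 is at 3.28 CPM or above in the 6 sciatic injury samples and at 1.43 CPM or below in the other 12, while Il6st, Osmr, Lifr and Stat3 overlap across most groups.

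The dorsal column injury, which cuts the central branch, was compared with LAM. No member was called, and 0% of all genes were called at an adjusted p under 0.05 in edgeR. At an unadjusted p under 0.05, 0 of 8 members and 793 of 15730 genes (5.04%) passed, and DESeq2's Wald test called 2 genes, neither of them a member. Il6 was at 0.414, 0.163 and 0.369 CPM in LAM and at 0.0754, 0.512 and 0.242 CPM in DCA, on 2 to 11 counts per library. The groups overlapped and the log2 fold change was -0.41, with a 95% interval of -1.50 to 0.68 (edgeR adjusted p = 0.722). Within lanes it was -1.52, 1.20 and -0.45. Lif and Stat3 were higher in each DCA library than in each LAM library, 2 of 8 members against 11.9% of all genes with groups that do not overlap in that direction, and their edgeR adjusted p-values were 0.671 and 0.698. With the offsets for GC share and length described below, Stat3 overlapped, at 254 to 282 CPM in DCA and 251 to 271 in LAM. Lif did not overlap on that scale.

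The difference between both injuries, each against its own operated control, was tested directly. Il6 differed, by 3.26 on the log2 scale (SE 0.63, 95% interval 1.92 to 4.60, edgeR adjusted p = 0.02), and it was 1 of 8 members called, against 1.61% of all genes. With a replicate block in the model, the Il6 difference was 3.25 (edgeR adjusted p = 0.0424), and 118 genes were called in place of 254. Leaving out single libraries gave adjusted p-values up to 0.114, with the call lost without SNA_Saline replicate 1 (0.0548), LAM replicate 1 (0.06), LAM replicate 3 (0.114) or DCA replicate 3 (0.0599). The smallest counts behind it are the 2 to 11 per library in LAM and DCA.

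Lif (chr11:4257557-4272514, GRCm38, plus strand), which encodes leukemia inhibitory factor, had 4 to 43 counts per library. It was at 1.00, 1.14 and 1.29 CPM in Sham_Saline, at 1.06, 1.08 and 0.428 in SNA_Saline and at 1.02, 0.688 and 0.995 in SNA_NAC. The first and second SNA_Saline libraries lay within the sham range and the third below it. The log2 fold change of SNA_Saline against Sham_Saline was -0.43, with a 95% interval of -1.21 to 0.35 (edgeR adjusted p = 0.469). In LAM it was at 0.621, 0.596 and 0.638 CPM and in DCA at 0.792, 0.769 and 0.846 CPM, while Sham_H2O2 had 0.517, 0.724 and 1.91. The interval for SNA_Saline spans a 2.32-fold lower to a 1.27-fold higher level.

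Cntf (chr19:12763660-12765632, GRCm38, minus strand), the ciliary neurotrophic factor made by Schwann cells, had no row in the count table and was not tested. Its deposited FPKM were 0.401, 0.428 and 0.451 in Sham_Saline, 0.359, 0.486 and 0.333 in SNA_Saline and 0.434, 0.280 and 0.0378 in SNA_NAC. They were 0.355, 0.174 and 0.142 in Sham_H2O2, 0.280, 0.694 and 0.373 in LAM, and 0.627, 0.467 and 0.683 in DCA. The SNA_Saline range enclosed the Sham_Saline range, and each Sham_H2O2 value lay below each Sham_Saline value. The gene overlaps Zfp91 on the same strand over 847 bases, so reads there cannot be assigned by strand, and Zfp91 itself was at 9.97 to 17.2 FPKM.

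Among the receptors, Il6ra (chr3:89864059-89913196, GRCm38, minus strand), the ligand-specific subunit, was lower on average in both sciatic injury groups than in Sham_Saline without passing the test. It was at 2.96, 3.24 and 1.90 CPM in Sham_Saline and at 1.72, 1.62 and 2.00 in SNA_Saline, on 15 to 77 counts per library. The groups overlapped through Sham_Saline replicate 3, and the log2 fold change was -0.61 (95% interval -1.16 to -0.06, unadjusted p = 0.0319, edgeR adjusted p = 0.192). In SNA_NAC it was at 1.68, 1.94 and 2.07 CPM, a log2 fold change against Sham_Saline of -0.53 (edgeR adjusted p = 0.171). LAM had 2.90, 2.66 and 2.99 CPM, and DCA had 3.51, 2.82 and 3.51. The difference between the sciatic and dorsal column changes was -0.82 (SE 0.35, edgeR adjusted p = 0.132).

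Sham_H2O2, which had peroxide and no nerve injury, had the lowest group mean of Il6ra, 1.09 ± 0.565 CPM (SD, n = 3). Its values were 0.905, 1.72 and 0.636 CPM on 7, 38 and 4 counts, each below each Sham_Saline value, and the log2 fold change was -1.14 (SE 0.28, 95% interval -1.73 to -0.55, unadjusted p = 0.000802). The edgeR adjusted p was 0.449, and no gene of the 15730 was called in this comparison (0%), with 1440 genes (9.15%) at an unadjusted p under 0.05 and 4 genes called by DESeq2. Within the 3 lanes the differences were -1.60, -0.87 and -1.43. Il6 in Sham_H2O2 was at 1.16, 0.724 and 1.43 CPM on 9 to 16 counts, above each Sham_Saline library and below each sciatic injury library, with a log2 fold change of 0.90 (95% interval 0.03 to 1.76, edgeR adjusted p = 0.449). These are 1 member higher and 1 lower of 8 with groups that do not overlap, against 2.16% and 3.27% of all genes. The 3 Sham_H2O2 libraries include the smallest of the series.

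Il6st (chr13:112464070-112510086, GRCm38, plus strand), which encodes the shared subunit gp130, was at 351, 168 and 149 CPM in Sham_Saline and at 208, 222 and 193 in SNA_Saline. Sham_Saline replicate 1 stood above every other library of the series, and the remaining sham libraries were below each SNA_Saline library. Il6st thus had a log2 fold change of -0.10 (95% interval -0.59 to 0.40, edgeR adjusted p = 0.813), and without that library it was 0.39 (edgeR adjusted p = 0.0658). In SNA_NAC the levels were 283, 252 and 286 CPM, each above each SNA_Saline library. The log2 fold change of SNA_NAC against SNA_Saline was 0.40, with a 95% interval of -0.10 to 0.89 (edgeR adjusted p = 1). Against Sham_Saline it was 0.30, and without Sham_Saline replicate 1 it was 0.79 (edgeR adjusted p = 0.00242). The fit without that library called 5861 of all genes in SNA_NAC against Sham_Saline, in place of 522. LAM lay between 169 and 183 CPM and DCA between 166 and 212.

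Osmr (chr15:6813577-6874969, GRCm38, minus strand), the oncostatin M receptor subunit, was at 58.6, 34.8 and 42.6 CPM in Sham_Saline, 55.9, 55.1 and 52.5 in SNA_Saline and 58.6, 66.8 and 64.1 in SNA_NAC. The lowest SNA_NAC value and the highest Sham_Saline value were nearly equal. Its log2 fold change was 0.27 in SNA_Saline (95% interval -0.11 to 0.64, edgeR adjusted p = 0.352) and 0.48 in SNA_NAC (95% interval 0.11 to 0.85, edgeR adjusted p = 0.12), each against Sham_Saline. Without Sham_Saline replicate 1 these were 0.50 (edgeR adjusted p = 0.0499) and 0.71 (edgeR adjusted p = 0.00686). Leaving that library out also raised the calls over all genes, from 430 to 2548 in SNA_Saline and from 522 to 5861 in SNA_NAC. The gain in calls was thus not limited to Osmr. In DCA against LAM the log2 fold change was 0.0016, with a 95% interval of -0.37 to 0.37.

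Lifr (chr15:7090614-7197489, GRCm38, plus strand), the receptor subunit for leukemia inhibitory factor and ciliary neurotrophic factor, showed no called difference. It was at 507, 341 and 366 CPM in Sham_Saline, 459, 490 and 398 in SNA_Saline and 403, 519 and 470 in SNA_NAC. The 3 groups overlapped, and the 95% interval of SNA_Saline against Sham_Saline was -0.20 to 0.50. LAM had 560, 471 and 527 CPM, higher on average than Sham_Saline, with a log2 fold change of Sham_Saline against LAM of -0.36 (unadjusted p = 0.0459, edgeR adjusted p = 0.159). DCA lay between 355 and 538 CPM.

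Stat3 (chr11:100885098-100939540, GRCm38, minus strand) encodes the transcription factor that carries the signal to the nucleus, and its activity is set by phosphorylation, which RNA levels do not show. Its mRNA was at 302, 331 and 261 CPM in Sham_Saline, 291, 297 and 352 in SNA_Saline and 358, 311 and 345 in SNA_NAC. The groups overlapped on this scale, and the log2 fold change of SNA_Saline was 0.07 with a 95% interval of -0.24 to 0.39 (edgeR adjusted p = 0.78). A change of 1.31-fold or more in either direction lies outside that interval. LAM was lower, at 222, 245 and 256 CPM, than each Sham_Saline library, with a log2 fold change of Sham_Saline against LAM of 0.31 (95% interval -0.01 to 0.62, edgeR adjusted p = 0.172). With the offsets for GC share and length described below, that change was 0.08 (edgeR adjusted p = 0.655) and these groups overlapped. Sham_H2O2 had 294, 320 and 194 CPM, with the lowest value in its smallest library.

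Socs3 (ENSMUSG00000053113, chr11:117966079-117970047, GRCm38, minus strand), the feedback inhibitor and the best known target of STAT3, was the member whose call depended on the scaling. It was at 6.63, 12.3 and 7.67 CPM in Sham_Saline, 12.9, 11.5 and 20.2 in SNA_Saline and 16.6, 13.2 and 11.9 in SNA_NAC. The injured libraries overlapped the sham ones through Sham_Saline replicate 2 alone. The log2 fold change was 0.75 in SNA_Saline (SE 0.24, 95% interval 0.23 to 1.26, unadjusted p = 0.00731, edgeR adjusted p = 0.114). In SNA_NAC it was 0.65 (SE 0.24, edgeR adjusted p = 0.124), also against Sham_Saline. Within lanes, SNA_Saline minus Sham_Saline was 0.95, -0.10 and 1.38, the middle value being the lane of Sham_Saline replicate 2. Without that replicate the log2 fold change was 1.07 (edgeR adjusted p = 0.0356).

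Sham_Saline replicate 2 is also the library with the steepest slope on GC share, and the longest Socs3 transcript, at 58.7% GC, has the highest GC share of the 9 genes. Fits that correct each gene by an offset for its GC share and length were therefore added after the data were seen. With these offsets Socs3 was at 7.04, 6.73 and 6.21 CPM in Sham_Saline, 14.0, 14.2 and 17.3 in SNA_Saline and 16.1, 16.5 and 13.1 in SNA_NAC. No injured library then overlapped a sham library. For the scale with offsets, the share of all genes without overlap is not given here, for Socs3 or any other member. On this scale the log2 fold change was 1.19 in SNA_Saline (SE 0.13, edgeR adjusted p = 1.2e-05) and 1.19 in SNA_NAC (edgeR adjusted p = 9.15e-06), in fits that called 7.58% and 7.88% of all genes. The change after dorsal column injury was -0.15 (edgeR adjusted p = 0.774), and the difference between both injuries was 1.34 (edgeR adjusted p = 0.000515; 1.35 and 0.00115 with the replicate block). DCA had 6.68, 5.77 and 5.44 CPM, LAM had 6.85, 5.99 and 7.02, and Sham_H2O2 had 9.39, 7.53 and 9.10 on the same scale. Il6 remained called with the offsets, at 2.54 in SNA_Saline (edgeR adjusted p = 2.13e-05), 2.67 in SNA_NAC and 2.78 for the difference (edgeR adjusted p = 0.00922). Stat3 with the offsets changed by 0.22 in SNA_Saline (edgeR unadjusted p = 0.0223, adjusted p = 0.142). Its levels were then 302 to 345 CPM in SNA_Saline and 308 to 326 in SNA_NAC, against 259 to 295 in Sham_Saline. Neither injured group overlapped Sham_Saline on that scale, unlike with the trimmed mean of M values alone.

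**Figure D3:**
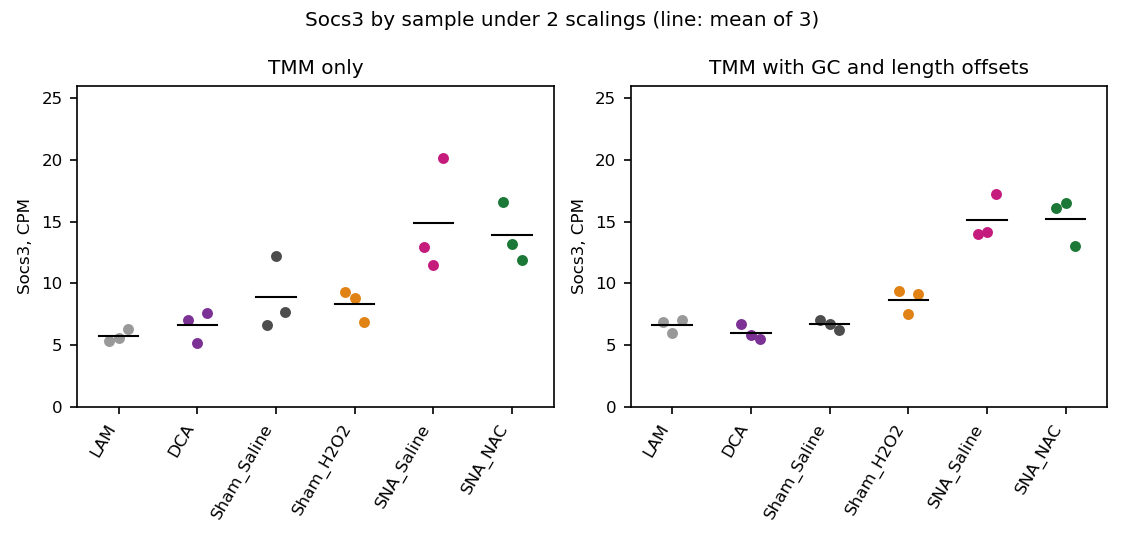
Socs3 in CPM by sample with the mean of each group of 3 (lines), scaled by the trimmed mean of M values alone (left) and with the added GC and length offsets (right). Sham_Saline replicate 2 moves from 12.3 to 6.73 CPM, and the 6 sciatic injury samples then lie at 13.1 CPM or above, over all other samples.

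The antioxidant was assessed by SNA_NAC against SNA_Saline. No member was called, nor any other gene (0% in edgeR), and 0 of 8 members and 314 genes (2%) had an unadjusted p under 0.05; DESeq2 called 0 genes. The log2 fold change of Il6 was 0.09 with a 95% interval of -0.50 to 0.68, and that of Socs3 was -0.10 with an interval of -0.60 to 0.41. The bounds leave room for an Il6 level in SNA_NAC up to 1.60-fold above or 1.42-fold below that of SNA_Saline. Il6st and Osmr were higher in each SNA_NAC library than in each SNA_Saline library, 2 of 8 members against 9.24% of all genes. With the GC and length offsets Osmr overlapped, at 56.3 to 59.2 CPM in SNA_NAC and 50.8 to 56.8 in SNA_Saline, and Il6st did not.

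**Figure D4:**
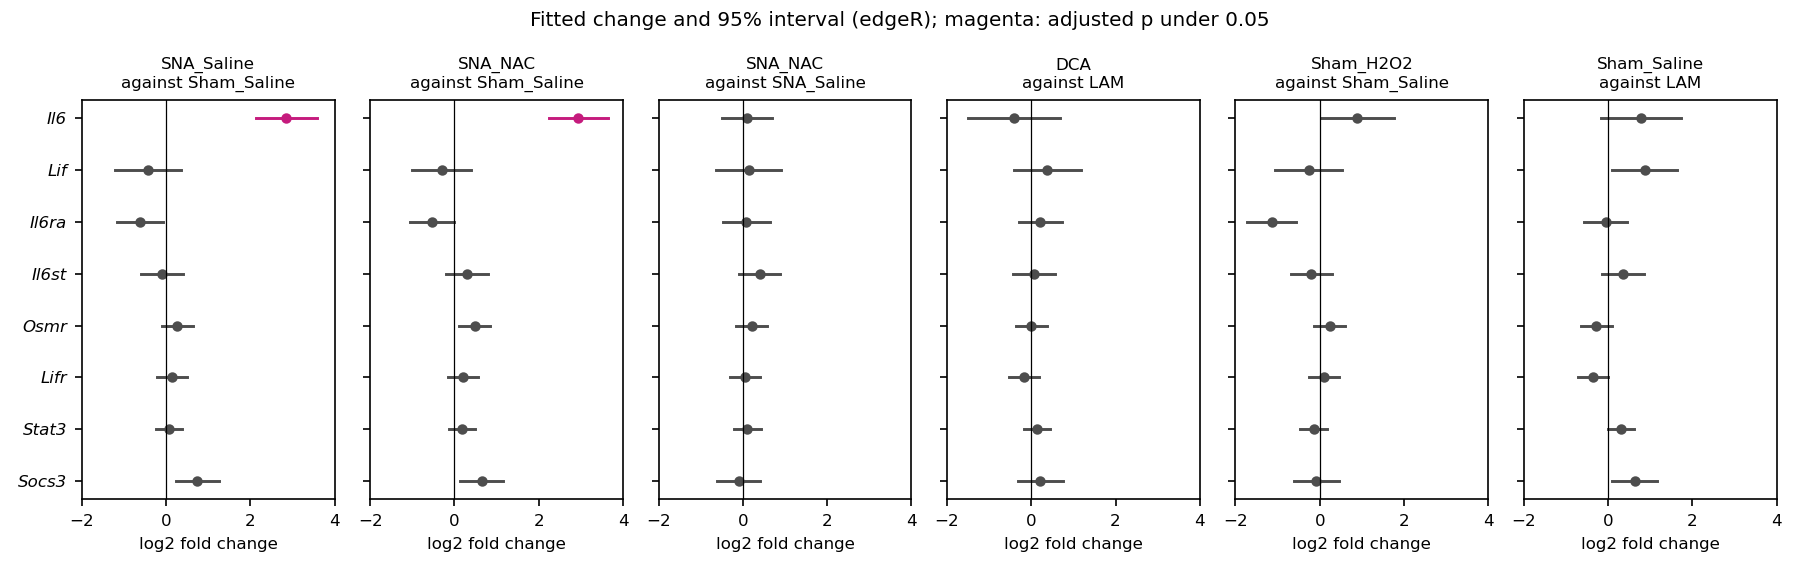
Fitted log2 fold change of each of 8 members (points) with its 95% interval (lines) in 6 comparisons, with magenta for an adjusted p under 0.05. Il6 alone is magenta, at 2.85 and 2.94 in the comparisons of the sciatic injury groups with Sham_Saline, while Il6ra in Sham_H2O2 against Sham_Saline lies at -1.14, with an interval of -1.73 to -0.55, and did not pass the adjusted threshold.

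The operated controls themselves were compared, because each injury has its own. Of all genes 0.0699% were called in Sham_Saline against LAM, and no member was. Il6, Lif, Stat3 and Socs3 were higher in each Sham_Saline library than in each LAM library, 4 of 8 members against 16.4% of all genes with groups that do not overlap in that direction. Their log2 fold changes were 0.79, 0.87, 0.31 and 0.63, with edgeR adjusted p-values of 0.236, 0.132, 0.172 and 0.121. With the offsets for GC share and length the values were 1.135 for Il6, 0.64 for Lif, 0.08 for Stat3 and 0.01 for Socs3. On that scale Stat3 was at 259 to 295 CPM in Sham_Saline and 251 to 271 in LAM. Socs3 was at 6.21 to 7.04 CPM in Sham_Saline and 5.99 to 7.02 in LAM. Stat3 and Socs3 thus overlapped there, while Il6 and Lif did not. Without Sham_Saline replicate 1, 5009 genes and 3 members were called in place of 11 and 0. These were Osmr at -0.51 (edgeR adjusted p = 0.031), Lifr at -0.56 (0.026) and Socs3 at 0.81 (0.0309).

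The rest of the pathway was followed in a list of 30 further ligands, receptors, kinases and inhibitors, of which 25 were in the count table; the list was chosen with earlier results of these data known. In SNA_Saline against Sham_Saline 2 of the 25 rose and 0 fell, against 2.16% and 0.572% of all genes. These were the negative regulators Socs2 and Ptpn2. Other inhibitors of the list, Socs1, Cish, Pias1, Pias3 and Ptpn1, were not called. Their log2 fold changes were -0.13, 0.36, -0.07, -0.26 and -0.04. Socs2, a relative of Socs3 known for limiting growth hormone signalling, went from 36.0 ± 6.56 to 58.7 ± 6.64 CPM (SD, n = 3; log2 fold change 0.71, edgeR adjusted p = 0.0357). Ptpn2, a phosphatase that acts on Janus kinases and STATs, went from 12.2 ± 1.09 to 18.2 ± 0.914 CPM (SD, n = 3; log2 fold change 0.58, edgeR adjusted p = 0.0301). These SNA_Saline calls were lost in 4 of 14 alternatives for Socs2 and in 8 of 14 for Ptpn2. In SNA_NAC against Sham_Saline 3 rose and 0 fell, against 2.47% and 0.846% of all genes. These were Socs2 at 57.9 ± 3.59 CPM, Ptpn2 at 17.7 ± 2.69 CPM and Jak2, one of the kinases bound to gp130, at 53.6 ± 5.31 CPM against 32.6 ± 6.85 in Sham_Saline (log2 fold change 0.72, edgeR adjusted p = 0.0127). Jak2 in SNA_Saline was at 47.3 ± 6.53 CPM (log2 fold change 0.54, edgeR adjusted p = 0.0682). In the main fit no gene of the list was called in the other 5 comparisons. For the difference between injuries, 4 were called with DESeq2, 3 with the GC and length offsets and 6 without Sham_Saline replicate 1. There 15 of 20 alternatives kept 0. For Sham_Saline against LAM, 2 were called with DESeq2 and 10 without Sham_Saline replicate 1, and 12 of 14 alternatives kept 0. Over all genes, the same fits called 1723, 805 and 4600 for the difference, in place of 254. For Sham_Saline against LAM they called 1141 and 5009, in place of 11. The median log2 fold change of the 25 genes in SNA_Saline was -0.04, against -0.03 over all genes. With the replicate block 1 gene of the list was called in SNA_Saline, and fitting the 2 groups alone called 0. DESeq2 called 4, the GC and length offsets called 4, and leaving out Sham_Saline replicate 1 called 5. Without Sham_Saline replicate 2, SNA_Saline replicate 1 or SNA_Saline replicate 2, 0 were called there, and without Sham_Saline replicate 3, 1 was. In SNA_NAC 0 were called with only the groups compared, and 0 without Sham_Saline replicate 2, SNA_NAC replicate 2 or SNA_NAC replicate 3. Without Sham_Saline replicate 3, 1 was called in SNA_NAC, and without Sham_Saline replicate 1, 11 were. Over all genes, the calls in SNA_Saline were 863 with DESeq2, 1192 with the offsets and 2548 without Sham_Saline replicate 1, in place of 430. In SNA_NAC, 5861 of all genes were called without that library, in place of 522.

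Cntfr, the receptor subunit for ciliary neurotrophic factor, was at 30.0 ± 12.4 CPM in Sham_Saline and 15.6 ± 3.48 in SNA_Saline (SD, n = 3). Its log2 fold change between these groups was -0.94 (SE 0.30, unadjusted p = 0.00646, edgeR adjusted p = 0.108). Sham_Saline had the highest mean of the 6 groups. LAM was at 16.9 ± 3.36 CPM, Sham_H2O2 at 19.3 ± 5.17, SNA_NAC at 18.04 ± 4.49 and DCA at 24.6 ± 7.87. The SNA_Saline range, 12.2 to 19.2 CPM, overlapped that of LAM, 13.5 to 20.2. The log2 fold change of Sham_Saline against LAM was 0.82 (unadjusted p = 0.0137, edgeR adjusted p = 0.109). Cntfr is named here after its values were seen, as the gene of the list with the lowest log2 fold change in SNA_Saline against Sham_Saline.

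A list of 25 genes known as targets of STAT3 or responsive to gp130 cytokines, of which 23 were tested, had more calls; this list, too, was chosen with earlier results known. In SNA_Saline against Sham_Saline 5 of the 23 rose and 0 fell, against 2.16% and 0.572% of all genes. Gfap, the intermediate filament protein of reactive glia, went from 1.71 ± 0.520 to 5.0 ± 1.60 CPM (SD, n = 3; log2 fold change 1.58, edgeR adjusted p = 0.00497). Tnfrsf12a, the receptor for the cytokine TWEAK, went from 9.48 ± 2.53 to 22.3 ± 3.59 CPM (log2 fold change 1.24, edgeR adjusted p = 0.00248). Gal, which encodes the neuropeptide galanin, went from 17.5 ± 5.70 to 40.0 ± 5.06 CPM (log2 fold change 1.19, edgeR adjusted p = 0.0108). Timp1, an inhibitor of matrix metalloproteinases, rose by 1.17 (edgeR adjusted p = 0.0357) and the transcription factor Myc by 0.62 (edgeR adjusted p = 0.0357), both on the log2 scale. These SNA_Saline calls were lost in 5 of 14 alternatives for Timp1 and in 6 of 14 for Myc. They were lost in 2 of 14 for Gal, 1 of 14 for Tnfrsf12a and 1 of 13 for Gfap. The median log2 fold change of the 23 genes was 0.41, against -0.03 over all genes. These genes also answer to other signals, and whether STAT3 drove them was not tested.

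In SNA_NAC against Sham_Saline, Gfap, Tnfrsf12a, Gal and Timp1 rose, with log2 fold changes of 1.41, 1.09, 1.01 and 1.09. Lcn2, an iron carrier protein also stored in neutrophil granules, fell by 1.13 (edgeR adjusted p = 0.0456), from 23.8 ± 6.74 to 10.8 ± 2.21 CPM (SD, n = 3). The summed level of the 5 neutrophil markers was 227 to 405 CPM in Sham_Saline, 246 to 384 in SNA_Saline and 162 to 212 in SNA_NAC, and its part in the Lcn2 result was not tested. In the main fit no target was called in DCA against LAM, in the difference between injuries, or in the other 3 comparisons. For the difference between injuries, 7 were called with DESeq2, 11 with the GC and length offsets and 8 without Sham_Saline replicate 1. There 14 of 20 alternatives kept 0. For Sham_Saline against LAM, 5 were called with DESeq2 and 10 without Sham_Saline replicate 1, and 12 of 14 alternatives kept 0. Over all genes, the same fits called 1723, 805 and 4600 for the difference, in place of 254. For Sham_Saline against LAM they called 1141 and 5009, in place of 11. Counts in this list moved with the fit: with the replicate block 3 were called in SNA_Saline and 3 in SNA_NAC, with only the groups compared 0, with the GC and length offsets 10 and 11, and without Sham_Saline replicate 1 10 and 9. Calls over all genes moved too, from 430 in SNA_Saline and 522 in SNA_NAC in the main fit. With the offsets they were 1192 (7.58%) and 1240 (7.88%), and without Sham_Saline replicate 1 they were 2548 and 5861. In SNA_Saline 2 targets were called without SNA_Saline replicate 1, and 3 without Sham_Saline replicate 3 or SNA_Saline replicate 3. In SNA_NAC 2 were called without any 1 of its own libraries, and 3 without Sham_Saline replicate 2 or 3 or with the minimum of 10 counts. The SNA_NAC calls were lost in 8 of 14 alternatives for Timp1, in 6 of 14 for Lcn2 and in 5 of 14 for Gal.

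**Figure D5:**
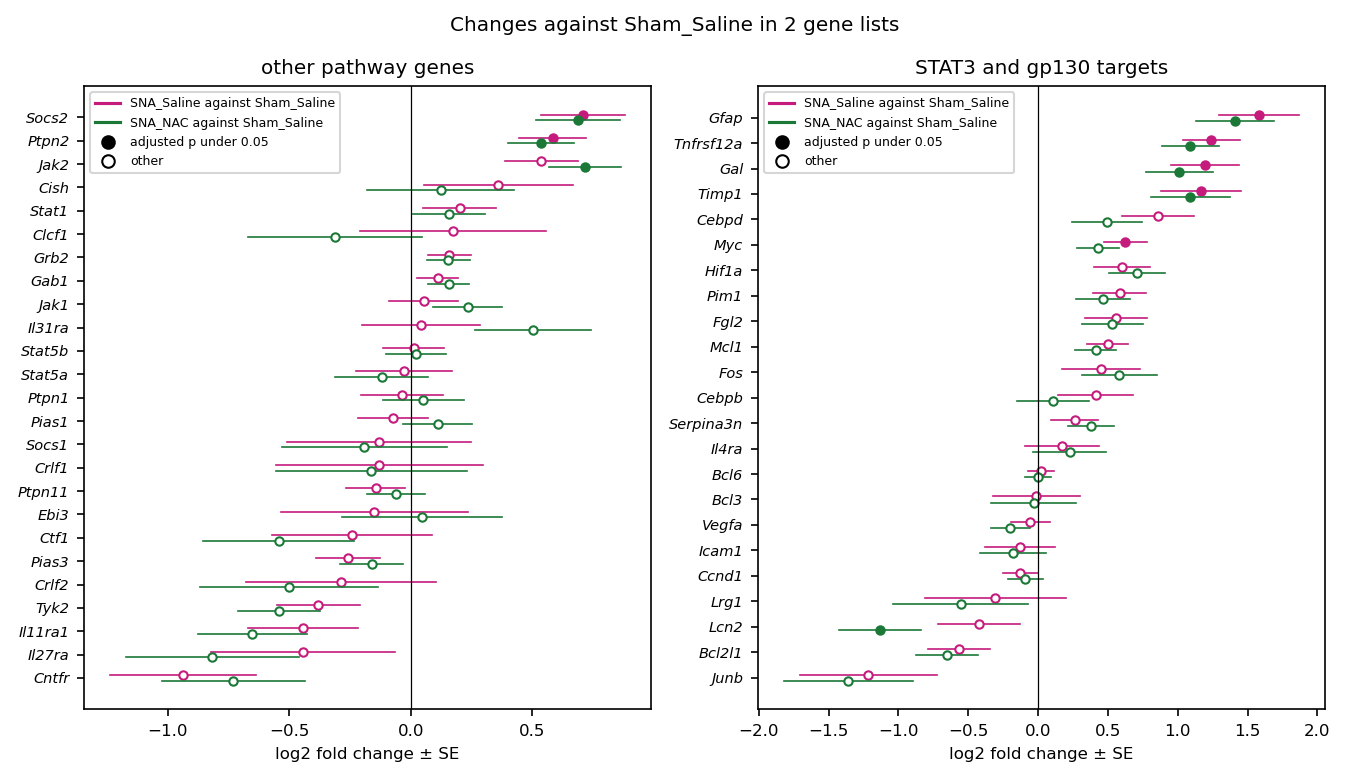
Log2 fold change with its standard error of the 25 further pathway genes (left) and 23 target genes (right) in SNA_Saline (magenta) and SNA_NAC (green), each against the same Sham_Saline libraries, with filled points for an adjusted p under 0.05. Gfap is highest among the targets, at 1.58 in SNA_Saline and 1.41 in SNA_NAC; among the pathway genes Socs2 is highest in SNA_Saline at 0.71 and Jak2 in SNA_NAC at 0.72.

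Across the 18 samples, which share batches and groups, Il6 correlated with Socs3 at r = 0.78 and with Stat3 at r = 0.50 in log2 CPM, and Stat3 correlated with Socs3 at r = 0.78. Osmr and Lifr varied together at r = 0.80, and Il6 and Il6ra ran opposite at r = -0.54. Among 12991 genes with a mean count of at least 50, those most like Il6 were Epb4.1l4a (r = 0.983), Fst, the activin antagonist follistatin (r = 0.975), and Sema6a, a semaphorin (r = 0.974). For Socs3 they were Itpkc (0.963), Chac1 (0.957) and Plin2 (0.955), and for Stat3 Cttn (0.953), Madd (0.945) and Adarb1 (0.944). These values describe the 18 libraries, in which group means and GC slopes are shared by many genes.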

How the data were processed

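Stranded mRNA libraries were read from one end on 3 lanes, per the labels' protocols. Per the submitters' processing notes, the tools were TopHat2 2.0.12, Bowtie2 2.2.3, SAMtools 0.1.19, HTSeq 0.6.0, edgeR 3.8.6 and build mm10; the use of strand in counting is not given in the sources used here. Il6ra and Stat3 overlap genes on the opposite strand (242 and 72 bases), so reads there are uncertain. The authors deposited whole-number counts per gene, with a lowest mean of 10.1, so that low genes such as Cntf had been removed, and FPKM values; for the 8 members both hold the same reads.

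Counts were tested with edgeR 4.0.16 (TMM, filterByExpr, glmQLFit, glmQLFTest; R 4.3.3), all 18 samples in one fit, with Benjamini-Hochberg adjustment over 15730 genes and a threshold of 0.05. A standard error is the log2 fold change divided by the root of the test's F. Levels are CPM after TMM. The members and lists were chosen with earlier results of these data known. Named from the lists were called genes, up to 8 per list; most-like genes were the 3 with the highest r. Replicate numbers equal lanes, and same-numbered samples, different mice, had mean correlations of deviations of -0.24 (SNA_Saline with Sham_Saline) to 0.31. Replicates differed beyond counting noise (chi-square per degree of freedom at least 4.11), and p-values cover the spread between pools. Alternatives were DESeq2 1.42.0 (size factors, Wald test), at least 10 counts in every sample, only the groups compared, the replicate block and each library left out; GC and length offsets (natural splines, 5 degrees of freedom, longest GENCODE M21 transcript, 15648 genes) were added after seeing the data. Counts are reads without molecular identifiers. Figures used matplotlib 3.10.9.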

Additional observations from a re-analysis of the deposited data

Results flagged for a closer look

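The change of Il6 after sciatic injury exceeded that after dorsal column injury by 3.26 on the log2 scale, by a test of the difference itself (SE 0.63, edgeR adjusted p = 0.02). Il6 was higher in 3 of 3 SNA_Saline libraries than in any Sham_Saline library, and in DCA and LAM it overlapped on 2 to 11 counts per library. The value ran from 2.72 to 3.81 when single libraries were left out, with edgeR adjusted p-values up to 0.114. The call was lost without SNA_Saline replicate 1, LAM replicate 1, LAM replicate 3 or DCA replicate 3. A minimum of 10 counts in every sample removed Il6 from the test.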

How the results depend on the processing

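Of 810 log2 fold changes of single members under alternatives, 748 kept their direction and their side of the threshold, 45 turned sign, and none of these 45 passed the threshold. Il6 stayed called in both sciatic comparisons with Sham_Saline in 13 of 13 alternatives that tested it, at 2.54 to 2.97 and 2.67 to 3.03; its low counts are the limit, and a minimum of 10 counts in every sample removed it, leaving 0 members called in SNA_Saline, SNA_NAC and the difference between injuries. The replicate block changed no call of a member; it gave 118 genes for the difference and 6 in Sham_Saline against LAM. Main counts of genes were 430 in SNA_Saline against Sham_Saline (340 higher, 90 lower), 254 for the difference (193, 61), 522 in SNA_NAC against Sham_Saline (389, 133), 11 in Sham_Saline against LAM and 0 elsewhere. DESeq2 gave 863 (520, 343), 1723 (701, 1022), 1223 (622, 601) and 1141, with 2 in DCA against LAM and 4 in Sham_H2O2 against Sham_Saline. Only the groups compared gave 65, 151, 68 and 1, and the minimum of 10 counts gave 4 in Sham_Saline against LAM. GC and length offsets gave 1192 (802, 390), 805 (541, 264), 1240 (831, 409) and 25, and with the replicate block 1032, 644, 1141 and 25; under both, 2 members (Il6 and Socs3) were called in SNA_Saline, SNA_NAC and the difference. Leaving out single libraries gave 174 to 2548, 55 to 4600, 215 to 5861 and 4 to 5009 genes, the highest each without Sham_Saline replicate 1, and 1 to 2, 0 to 1, 1 to 3 and 0 to 3 members. Where these changed a call, the cause was not tested.

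Signs turned as follows. Osmr in DCA against LAM was -0.01 with DESeq2 and with its size factors and -0.011 with only the groups compared. With the offsets, alone and with the block, Socs3 in DCA against LAM was -0.15 and -0.16, Stat3 in the difference 0.18 and 0.18, Il6ra in SNA_NAC against SNA_Saline -0.12 and -0.12, and Lifr there -0.17 and -0.17. Lifr in SNA_NAC against Sham_Saline was -0.13 and -0.13. In Sham_H2O2 against Sham_Saline, Lifr was -0.0048 and -0.0052, Stat3 0.0046 and 0.003, and Socs3 0.35 and 0.35. Leaving out single libraries gave ranges that cross 0. In SNA_Saline against Sham_Saline they were -0.32 to 0.39 for Il6st and -0.02 to 0.16 for Stat3; in the difference, -0.38 to 0.33 for Il6st and -0.15 to 0.025 for Stat3. In SNA_NAC against SNA_Saline they were -0.031 to 0.19 for Il6, -0.21 to 0.38 for Lif, -0.041 to 0.14 for Lifr and -0.25 to 0.19 for Socs3. In DCA against LAM they were -0.95 to 0.12 for Il6, -0.069 to 0.12 for Il6st and -0.19 to 0.14 for Osmr. In Sham_H2O2 against Sham_Saline they were -0.78 to 0.036 for Lif, -0.42 to 0.30 for Il6st, -0.0058 to 0.30 for Lifr, -0.29 to 0.048 for Stat3 and -0.26 to 0.23 for Socs3. In Sham_Saline against LAM they were -0.21 to 0.12 for Il6ra and -0.14 to 0.58 for Il6st.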

Other observations

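Family members and targets that the count table does not hold were at low deposited FPKM. Osm, the ligand of the oncostatin M receptor, reached at most 0.123 FPKM over the 18 samples, Il11 at most 0.157 and Ctf2 at most 0.276, and Il31 was listed at 0 in 18 samples. Il27 lay between 0.0521 and 0.448 FPKM. Vip, which encodes a neuropeptide, lay between 0.0788 and 0.346 FPKM in SNA_NAC, 0.0840 and 0.140 in SNA_Saline and 0.0274 and 0.0626 in Sham_Saline. In Sham_H2O2 it lay between 0.0833 and 0.0999, and in LAM and DCA it reached 0.0697 and 0.0547. Reg3b was listed at 0 in 8 of 18 samples and reached 0.317. These genes had no counts and were not tested.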
